A study of Homo sapiens with 8 samples.

Results

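RNA-seq counts of 40 genes of small nuclear ribonucleoprotein (snRNP) assembly, chosen by name as the Cajal body scaffold and its recruitment factors, the survival of motor neuron (SMN) complex, the Sm and LSm rings and the proteins of the U1 and U2 snRNPs, were compared in 4 groups of colon cancer cells. All 40 were found among the 64253 gene identifiers in the count files, and all 40 passed the filter on low counts, as did 20305 genes in all. The human colon cancer line HCT-8 is sensitive to 5-fluorouracil (5-FU), a drug that inhibits thymidylate synthase and is built into RNA, and its resistant partner is HCT-8/FU. Both lines were grown in unconditioned medium, and HCT-8 was also grown in conditioned medium (CM) collected from HCT-8 or from HCT-8/FU cultures after 48 hours, which gave the groups labelled CM of HCT-8 (here HCT-8 CM) and CM of HCT-8/FU (here HCT-8/FU CM), with 2 replicates in each of the 4 groups. The cells of both CM groups were therefore HCT-8, and none of the groups carried an engineered allele per the labels. HCT-8/FU is 1 resistant line, so a difference from HCT-8 cannot be told apart from the history of that line. How the resistance was raised, whether 5-FU was present at harvest and how long HCT-8 stayed in CM are not given in the sources used here. Nothing in the labels states that replicates came from separate cultures, so the p-values measure the spread between these samples, which may be technical.

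The 8 libraries held 5804124 to 34881349 counts on genes. Of the records, 19.96% to 29.58% were not aligned in HCT-8 replicate 1, HCT-8/FU replicate 2 and HCT-8 CM replicate 1, against 3.58% to 4.43% in the other 5 libraries, and these 3 libraries were also the shallowest. Members called in the first 2 comparisons are given below with and without them. Leaving them out keeps 1 library each of HCT-8, HCT-8/FU and HCT-8 CM. Calls in that fit therefore rest on the spread of the HCT-8/FU CM pair. Its values for single genes are given as effect sizes only. Of 10 epithelial and colon markers all 10 were tested, with a summed level of 9480 to 11800 CPM (counts per 1000000 counts on genes), although CEACAM5 had 46 counts over all libraries. The 6 fibroblast markers summed to 12.5 to 22.3 CPM with COL1A2 at 0, the 3 endothelial markers to 1.27 to 2.45 CPM and the 5 leukocyte markers to 0.501 to 1.84 CPM with PTPRC and CD3E at 0.

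Spliceosomal snRNPs are built in stages. A new small nuclear RNA (snRNA) leaves the nucleus with the export adaptor PHAX, receives a ring of Sm proteins from the SMN complex in the cytoplasm, has its cap trimethylated by TGS1 and returns with the import adaptor SNUPN to the Cajal body, a nuclear body scaffolded by coilin (COIL) where snRNPs mature. U6 snRNA carries a ring of LSm proteins in place of the Sm ring, and a related LSm ring acts in cytoplasmic mRNA decay. The study followed coilin and Cajal bodies in 5-FU-resistant cells, and the counts bear on how much mRNA of this pathway each group held.

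SMN1 and SMN2, the genes of the SMN protein, are near-identical copies on chromosome 5, and their counts rest on few distinguishing bases. Their main transcripts differed by 2 substitutions in 1482 exonic bases of the GRCh38 reference, C6T in exon 8 and G236A in exon 9, counted from the 5′ end of each exon with the base of SMN1 first. Exon 8, long called exon 7 in the field, is shown because its substitution is known to lower its inclusion in SMN2 mRNA. The differing base is in capitals, and the exons lie on the plus strand at chr5:70951941-70951994 in SMN1 and chr5:70076521-70076574 in SMN2.
SMN1 exon 8: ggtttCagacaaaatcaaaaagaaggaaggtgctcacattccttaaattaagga
SMN2 exon 8: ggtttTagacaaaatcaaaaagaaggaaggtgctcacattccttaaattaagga
A read that covers neither position matches both transcripts equally well. The count files list 2.24% to 3.48% of records as not uniquely aligned. The sources used here do not say whether such reads were also counted to a gene, so the split between the genes is uncertain.

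Promoter sequence, the 250 bases before a gene's annotated start, was found for 32 of the 40 members in RefSeq (GRCh38.p14). The ETS-type motif CCGGAAG was present on either strand in 12 of the 32 windows (37.5%), against 8.82% of all 27305 promoters of that length and 14.7% of those of tested genes. The other motifs searched on both strands were the E-box CACGTG with 3.12% against 6.49% of all promoters and 8.64% of those of tested genes, CCAAT with 37.5% against 33.0% and 34.1%, the GC box GGGCGG with 53.1% against 42.3% and 64.5%, and the palindromic NRF1 motif with 6.25% against 1.13% and 1.85%. The GC box was thus more frequent than in all promoters and less frequent than in those of tested genes. A match describes letters in a window and no binding was measured. Only 7 of the 32 windows held no annotated exon. From those are shown COIL, which has no ETS match, and the 3 members that hold one and passed the FDR in HCT-8/FU or in HCT-8/FU CM as described below. The RefSeq start of GEMIN4 lies inside the span that GENCODE, the source of all other positions, gives the gene (744421 to 753999), so its window is not before the start by that annotation. Capitals mark each ETS match. The 2 matches of SNRPC overlap as the 2 strands of 1 palindromic stretch, and no capitals mark the other motifs.
COIL, minus strand, chr17:56961051-56961300: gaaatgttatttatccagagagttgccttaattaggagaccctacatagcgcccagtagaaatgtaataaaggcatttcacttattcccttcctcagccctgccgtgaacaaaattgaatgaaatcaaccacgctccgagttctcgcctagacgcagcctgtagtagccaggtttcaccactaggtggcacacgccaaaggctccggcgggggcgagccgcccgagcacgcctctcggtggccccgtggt
GEMIN4, minus strand, chr17:752265-752514: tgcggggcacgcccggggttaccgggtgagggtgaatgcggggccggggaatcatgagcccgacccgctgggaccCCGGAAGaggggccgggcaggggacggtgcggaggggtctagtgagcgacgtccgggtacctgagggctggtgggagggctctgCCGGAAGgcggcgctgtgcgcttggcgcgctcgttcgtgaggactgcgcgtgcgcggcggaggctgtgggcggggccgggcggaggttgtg
CLNS1A, minus strand, chr11:77637795-77638044: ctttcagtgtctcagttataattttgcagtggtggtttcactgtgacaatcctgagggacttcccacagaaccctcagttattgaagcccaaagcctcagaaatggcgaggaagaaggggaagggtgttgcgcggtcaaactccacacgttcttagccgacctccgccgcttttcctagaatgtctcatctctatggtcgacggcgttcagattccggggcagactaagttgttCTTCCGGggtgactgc
SNRPC, plus strand, chr6:34757255-34757504: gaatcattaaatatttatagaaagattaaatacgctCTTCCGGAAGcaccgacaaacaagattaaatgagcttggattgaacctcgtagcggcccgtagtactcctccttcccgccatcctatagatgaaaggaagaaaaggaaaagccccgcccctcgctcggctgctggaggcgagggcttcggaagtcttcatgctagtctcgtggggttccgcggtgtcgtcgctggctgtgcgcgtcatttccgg

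Levels below are CPM, scaled between libraries by edgeR's TMM factors. Per kilobase of exonic sequence, the mean level over all libraries was highest for the Sm ring gene SNRPD2 (66.5 CPM per kb), STRAP of the SMN complex (55.7) and SNRNP70, the U1-70K protein (51.7). It was lowest for GEMIN8 (1.11 CPM per kb), LSM8 (1.24), LSM6 (1.43) and SMN2 (1.78), where the 17309 annotated exonic bases of LSM8 weigh on its value. Within a gene the highest and the lowest of the 8 libraries differed from 1.29-fold in LSM3 to 3.65-fold in SMN1. Reads were counted per gene, the strand setting is not given, so the reads of genes that overlap on opposite strands cannot be told apart, and several overlapping or copied genes are named beside the members they touch.

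A gene was called differentially expressed (DE) at a false discovery rate (FDR, the adjusted p of edgeR's quasi-likelihood test over all tested genes) of at most 0.05 if its log2 fold change also reached 0.58 in either direction. The first comparison, HCT-8/FU against HCT-8, asked how the resistant line differed from the sensitive line. SNRPD1, SNRPF, LSM5 and USPL1 were higher and SART3 was lower in HCT-8/FU, by log2 fold changes of 0.58 to 0.72 in size. In bulk RNA, fewer cells that hold an mRNA and less of it per cell cannot be told apart. These were 4 of 40 members higher (10.0%, against 13.2% of all tested genes) and 1 of 40 lower (2.5%, against 8.12%), so the shares were not above those of all genes. By FDR alone, 8 members were higher (20.0%, against 18.6%) and 4 lower (10.0%, against 18.1%). Both HCT-8/FU libraries lay above both HCT-8 libraries in 14 members (35.0%, against 32.7%) and below them in 13 (32.5%, against 32.3%). The members' median log2 fold change was 0.02, beside 0.01 over all genes. The split changed with 1 library and with a correction for base composition, since 1 member was called higher and 1 lower without HCT-8 replicate 2, and the GC and length correction described below gave 1 higher and 4 lower. Without all 3 poorly aligned libraries 3 members were called higher and 1 lower (all genes 14.3% and 9.18%).

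The second comparison, HCT-8/FU CM against HCT-8 CM, asked how medium from the resistant line changed HCT-8 cells relative to medium from the sensitive line. SMN1, USPL1 and TGS1 were higher and SNRPD2, LSM7, WRAP53 and SNRPG lower in HCT-8/FU CM. That made 3 of 40 members higher (7.5%, against 7.97% of all tested genes) and 4 of 40 lower (10.0%, against 1.28%). By FDR alone 4 were higher (10.0%, against 11.2%) and 11 lower (27.5%, against 8.49%), and the groups did not overlap in 5 higher members (12.5%, against 26.9%) and 23 lower ones (57.5%, against 34.5%). The members' median log2 fold change was −0.17, beside −0.06 over all genes. The lower calls turned on 1 library, since without HCT-8 CM replicate 1, 2 members were called higher and 0 lower, and 8 were lower by FDR alone (all genes 6.88%). Without all 3 poorly aligned libraries 1 member was called higher and 0 lower, while 15 members were lower by FDR alone (all genes 18.3%). That fit takes its spread from the only remaining pair, HCT-8/FU CM. Scaling also moved the split, to 3 higher and 2 lower with DESeq2's size factors (all genes 8.36% and 0.813%). With HCT-8 CM replicate 2 as TMM reference it was 3 higher and 1 lower (all genes 9.09% and 0.621%).

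The third comparison, HCT-8 CM against HCT-8, asked what CM of the same line did, and it shares its libraries with the control groups of the other comparisons. No member was called in either direction (0.0%, against 3.86% of all tested genes higher and 4.29% lower). DESeq2 also called 0, and 15 of 40 members had an unadjusted p of edgeR under 0.05, beside 6247 of 20305 tested genes. By FDR alone 6 of 40 members were higher (all genes 9.04%) and 2 lower (5.0%, against 10.4%). The groups did not overlap in 16 of 40 members higher (all genes 27.2%) and 10 lower (all genes 27.1%), and the median was 0.11, beside 0.01 over all genes. HCT-8 CM replicate 2 decided the count, since without it 3 members, SNRPD2, SNRPG and LSM7, were called higher. The 6 higher by FDR alone were the Sm ring genes SNRPD1 (log2 fold change 0.44), SNRPD2 (0.49) and SNRPG (0.52), the U1 gene SNRNP70 (0.38) and the LSm genes LSM4 (0.49) and LSM7 (0.40), and the 2 lower were SART3 (−0.41) and STRAP (−0.27). The other 32 ranged from −0.39 in GEMIN2 to 0.47 in GEMIN6. With the GC and length correction described below, SNRPD1 (0.59) and SNRPG (0.64) were called higher.

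**Figure D1:**
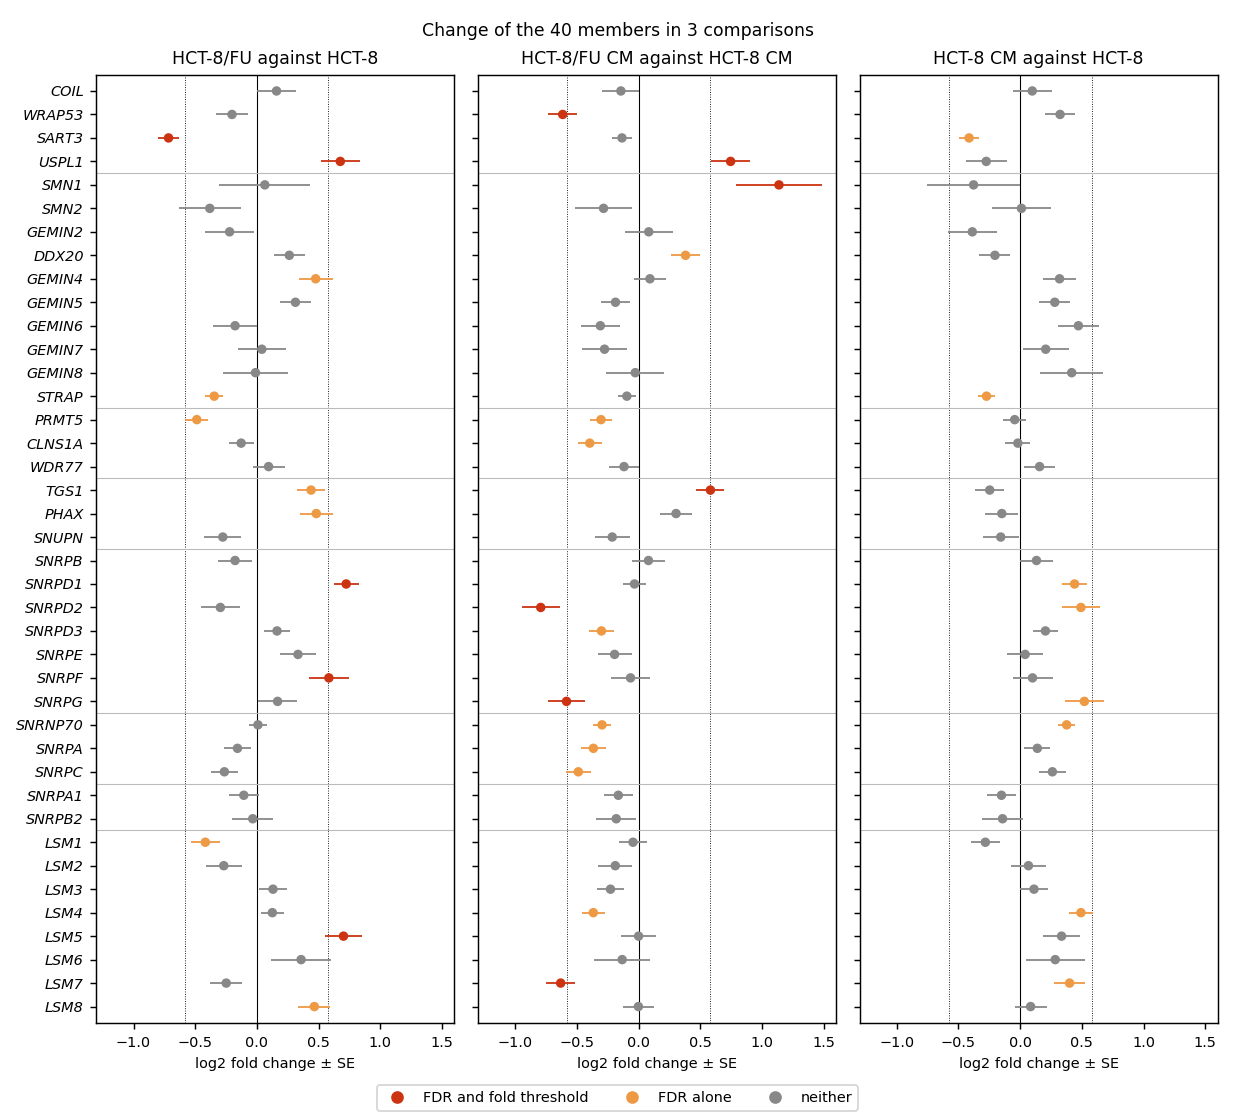
Log2 fold change of each of the 40 members (points, with standard error as bars; red, past the FDR and the fold threshold; orange, FDR alone; grey, neither) in the 3 comparisons, 1 per panel, ordered by role with grey lines between roles and dotted lines at ±0.58. In the first panel 4 members are red to the right and 1 to the left, in the second 3 and 4, and in the third none.

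Of the Cajal body genes, SART3 and USPL1 moved in HCT-8/FU and COIL was not called in any comparison. COIL on chromosome 17 (56938199 to 56961050, minus strand), the scaffold of the body, was at 23.3 and 17.9 CPM in HCT-8, 24.1 and 19.6 CPM in HCT-8/FU, 20.3 and 22.3 in HCT-8 CM, and 21.2 and 17.6 in HCT-8/FU CM. The replicates of HCT-8, HCT-8/FU and HCT-8/FU CM lay further apart than the group means. Its log2 fold changes were 0.16 ± 0.16 (SE; edgeR FDR = 0.481) in HCT-8/FU, −0.14 ± 0.15 (FDR = 0.567) in HCT-8/FU CM and 0.10 ± 0.16 (FDR = 0.73) in HCT-8 CM against HCT-8.

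SART3, on chromosome 12 (108522214 to 108561400, minus strand), encodes a factor that joins U6 to U4 snRNA and recycles them, and it is enriched in Cajal bodies. It was at 96.5 and 99.2 CPM in HCT-8, 58.6 and 61.2 CPM in HCT-8/FU, 73.8 and 73.4 in HCT-8 CM, and 65.1 and 68.9 in HCT-8/FU CM. HCT-8 was the highest group and HCT-8/FU the lowest, with no overlap between any of the groups. The log2 fold change was −0.72 ± 0.08 (edgeR FDR = 6.96e-06) in HCT-8/FU, and this call stood under every alternative run, from −0.77 to −0.63. Without the 3 poorly aligned libraries it was −0.77. The difference was −0.13 ± 0.08 (FDR = 0.271) in HCT-8/FU CM, and −0.41 ± 0.08 (FDR = 0.00215) in HCT-8 CM against HCT-8, past the FDR and under the fold threshold.

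USPL1, on chromosome 13 (30617693 to 30660770, plus strand), is a SUMO isopeptidase found in Cajal bodies. Its level was 15.4 and 14.2 CPM in HCT-8, 25.2 and 20.7 CPM in HCT-8/FU, 14.5 and 10.6 in HCT-8 CM, and 19.6 and 21.1 in HCT-8/FU CM. Both groups of the resistant line or its medium lay above both other groups without overlap. The log2 fold change was 0.68 ± 0.16 (edgeR FDR = 0.00346) in HCT-8/FU and 0.75 ± 0.16 (FDR = 0.00331) in HCT-8/FU CM. The first call was lost without HCT-8 replicate 2 (0.58, FDR = 0.0872), without HCT-8/FU replicate 1 (0.49, FDR = 0.117) and with the libraries corrected for GC content and exonic length (0.47, FDR = 0.0416, under the fold threshold). Without the 3 poorly aligned libraries the values were 0.82 and 0.94. The second was lost without HCT-8 CM replicate 2 (0.49, FDR = 0.0608).

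WRAP53, which guides small Cajal body RNAs and telomerase RNA to the body, was at 20.0 and 21.9 CPM in HCT-8, 17.7 and 19.6 CPM in HCT-8/FU, 28.2 and 25.2 in HCT-8 CM, and 17.6 and 17.0 in HCT-8/FU CM. HCT-8 CM was the highest group. WRAP53 fell by 0.61 ± 0.12 on the log2 scale in HCT-8/FU CM (edgeR FDR = 0.00179) and was at −0.20 ± 0.13 (FDR = 0.248) in HCT-8/FU. The difference lay under the fold threshold without HCT-8 CM replicate 1 (−0.54), without HCT-8 replicate 2 (−0.55) and without the 3 poorly aligned libraries (−0.54). It also did with DESeq2 (−0.5791), DESeq2's size factors (−0.5765) and HCT-8 CM replicate 2 as TMM reference (−0.53). With edgeR on the groups compared only it was −0.53, and with the GC and length correction −0.52. Of the exonic bases of WRAP53, 23.2% lie opposite another gene.

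In the SMN complex, the 10 members held 1 call over the first 3 comparisons, SMN1. SMN1 was at 12.5 and 13.7 CPM in HCT-8, 14.3 and 13.0 CPM in HCT-8/FU, 9.32 and 10.8 in HCT-8 CM, and 34.0 and 10.9 in HCT-8/FU CM. A single library stood out, HCT-8/FU CM replicate 1 with 1060 counts, while replicate 2 with 337 counts lay near HCT-8 CM. The log2 fold change was 1.14 ± 0.35 (edgeR FDR = 0.0336) in HCT-8/FU CM, and without that replicate it was 0.11 (FDR = 0.855). The call was also lost without HCT-8 replicate 1 (FDR = 0.0575), HCT-8 replicate 2 (FDR = 0.0575), HCT-8/FU replicate 1 (FDR = 0.0651) or HCT-8/FU replicate 2 (FDR = 0.0608) and with DESeq2 (FDR = 0.135), at log2 fold changes of 1.14 or more. Without the 3 poorly aligned libraries the log2 fold change was 1.06.

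SMN2 was at 6.06 and 5.97 CPM in HCT-8, 5.32 and 3.18 CPM in HCT-8/FU, 5.64 and 6.33 in HCT-8 CM, and 4.62 and 5.32 in HCT-8/FU CM. Its level in the library where SMN1 stood out, 4.62 CPM, lay within the range of the other libraries. The log2 fold changes of SMN1 and SMN2 in HCT-8/FU were 0.06 ± 0.37 (edgeR FDR = 0.918) and −0.38 ± 0.25 (FDR = 0.263), and that of SMN2 in HCT-8/FU CM was −0.28 ± 0.23 (FDR = 0.446). SMN1 took 88.0% of the counts of both genes in that library, against 62.3% to 80.4% in the other 7. Summed as 1 gene, the pair was at 38.6 CPM there and at 14.96 to 19.69 CPM elsewhere, with a log2 fold change of 0.76 ± 0.27 in HCT-8/FU CM (edgeR FDR = 0.067).

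The other 8 genes of the complex were not called. GEMIN4, a core subunit, was higher in HCT-8/FU by FDR alone, with a log2 fold change of 0.48 ± 0.14 (edgeR FDR = 0.0129). STRAP, also known as unrip, was lower by FDR alone at −0.35 ± 0.07 (FDR = 0.0016), and at −0.27 ± 0.07 (FDR = 0.0158) in HCT-8 CM against HCT-8. DDX20, the helicase Gemin3, was higher in HCT-8/FU CM by FDR alone at 0.38 ± 0.12 (FDR = 0.0367), and was at 0.26 ± 0.12 (FDR = 0.119) in HCT-8/FU. Other log2 fold changes did not pass the FDR. In HCT-8/FU they were −0.22 for GEMIN2, which binds the Sm proteins, 0.31 for GEMIN5, which recognises the snRNA, −0.18 for GEMIN6, 0.04 for GEMIN7 and −0.01 for GEMIN8. Those in HCT-8/FU CM were 0.08 for GEMIN2, 0.09 for GEMIN4, −0.19 for GEMIN5, −0.31 for GEMIN6, −0.28 for GEMIN7, −0.03 for GEMIN8 and −0.09 for STRAP. Of the exonic bases of GEMIN7, 74.0% lie opposite GEMIN7-AS1.

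Before assembly, the arginines of several Sm proteins are methylated by PRMT5 with WDR77, while CLNS1A chaperones the Sm proteins. PRMT5 was lower by FDR alone in both comparisons with the resistant line or its medium, at −0.49 ± 0.09 (edgeR FDR = 0.000801) in HCT-8/FU and −0.30 ± 0.09 (FDR = 0.0294) in HCT-8/FU CM, with 28.2% of its exonic bases opposite PRMT5-AS1. CLNS1A was at −0.13 ± 0.10 (FDR = 0.367) in HCT-8/FU and lower by FDR alone in HCT-8/FU CM, at −0.40 ± 0.10 (FDR = 0.0104). WDR77 was at 0.09 (FDR = 0.622) and −0.12 (FDR = 0.562) on the log2 scale.

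Of the cap and transport genes, TGS1, the methylase that makes the trimethylguanosine cap, was at 20.8 and 20.6 CPM in HCT-8, 29.3 and 26.1 CPM in HCT-8/FU, 16.8 and 17.9 in HCT-8 CM, and 25.6 and 26.7 in HCT-8/FU CM. HCT-8/FU and HCT-8/FU CM lay above both other groups without overlap, as for USPL1. TGS1 rose by 0.58 ± 0.11 on the log2 scale in HCT-8/FU CM (edgeR FDR = 0.00188) and was higher by FDR alone in HCT-8/FU, at 0.44 ± 0.12 (FDR = 0.00782). The CM call lay just over the fold threshold and fell under it without HCT-8 CM replicate 1 (0.55, FDR = 0.00402) or HCT-8/FU CM replicate 2 (0.56, FDR = 0.037), and the GC and length correction took it to 0.26 (FDR = 0.183). Without the 3 poorly aligned libraries it was 0.55. PHAX was higher by FDR alone in HCT-8/FU, at 0.48 ± 0.13 (FDR = 0.00927), and was at 0.30 ± 0.13 (FDR = 0.111) in HCT-8/FU CM. SNUPN was at −0.28 (FDR = 0.17) and −0.21 (FDR = 0.33).

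**Figure D2:**
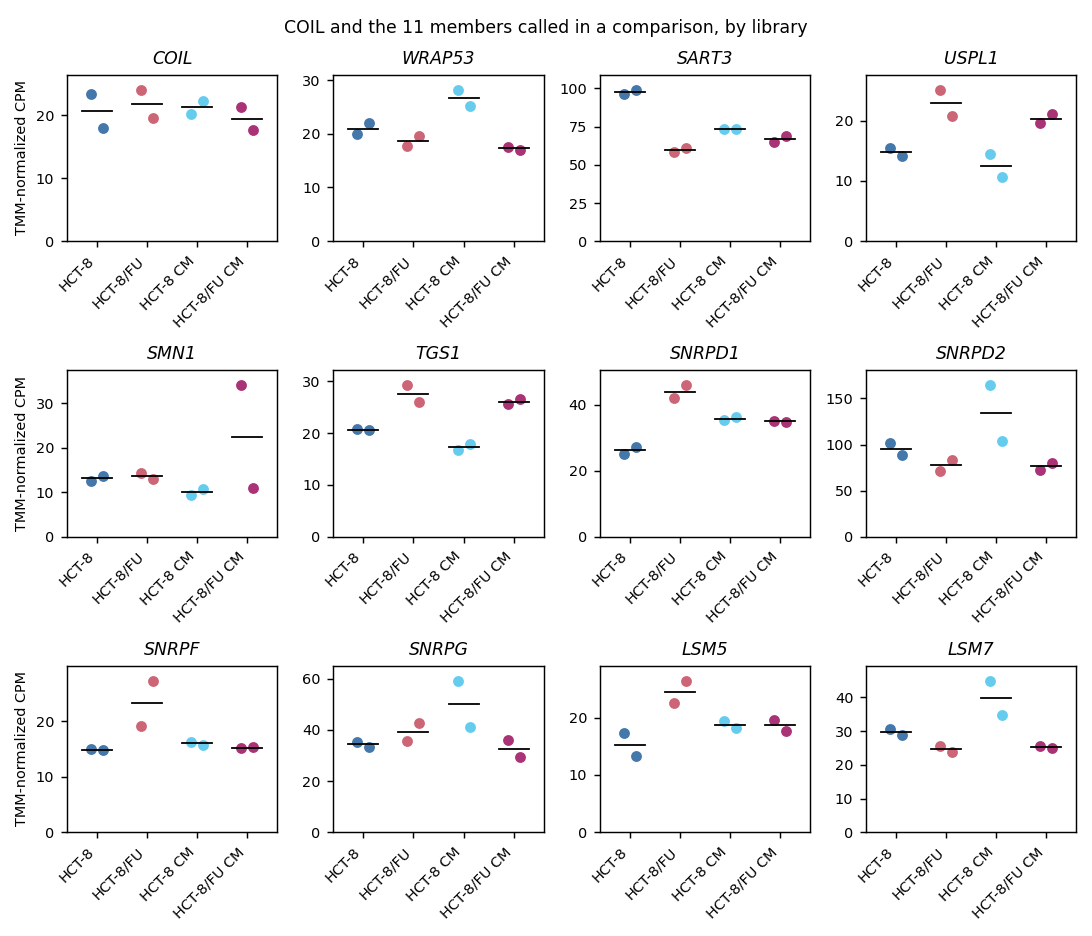
TMM-normalized CPM in each library (points; black lines, group means, n = 2) of COIL and of the 11 members called in at least 1 of the first 3 comparisons. SART3 is highest in HCT-8 at 96.5 and 99.2 CPM, and the 1 high point of SMN1 is HCT-8/FU CM replicate 1 at 34.0 CPM.

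The 7 Sm proteins (SNRPB, SNRPD1, SNRPD2, SNRPD3, SNRPE, SNRPF and SNRPG) close a ring around the Sm site of the U1, U2, U4 and U5 snRNAs, and their mRNAs did not move as a block. In HCT-8/FU 2 of the 7 were called higher and 0 lower, beside 13.2% and 8.12% of all tested genes, with a median log2 fold change of 0.17. HCT-8/FU CM had 0 called higher and 2 lower, beside 7.97% and 1.28%, with a median of −0.19. All 7 values were positive in HCT-8 CM against HCT-8, and 3 passed the FDR, beside 9.04% of all tested genes higher by FDR alone.

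SNRPD1, on chromosome 18 (21612314 to 21633524, plus strand), was at 25.1 and 27.2 CPM in HCT-8, 42.1 and 46.0 CPM in HCT-8/FU, 35.4 and 36.2 in HCT-8 CM, and 35.3 and 34.9 in HCT-8/FU CM. HCT-8/FU was the highest group and HCT-8 the lowest, and the CM groups lay close together between them. SNRPD1 rose by 0.72 ± 0.10 on the log2 scale in HCT-8/FU (edgeR FDR = 4.71e-05), against −0.03 ± 0.10 (FDR = 0.859) in HCT-8/FU CM. In HCT-8 CM against HCT-8 it was higher by FDR alone at 0.44 ± 0.10 (FDR = 0.00665). The rise in HCT-8/FU was 0.67 to 0.79 when any 1 library was left out. It was 0.62 without the 3 poorly aligned libraries, but 0.30 (FDR = 0.0546) after the GC and length correction.

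SNRPF was at 15.01 and 14.75 CPM in HCT-8, 19.1 and 27.2 CPM in HCT-8/FU, 16.2 and 15.7 in HCT-8 CM, and 15.1 and 15.4 in HCT-8/FU CM. Only HCT-8/FU stood apart, and most of its difference lay in replicate 2, 1 of the poorly aligned libraries. The log2 fold change was 0.58 ± 0.16 (edgeR FDR = 0.0101) in HCT-8/FU and 0.36 (FDR = 0.0854) without that replicate. It was 0.37 without the 3 poorly aligned libraries. Without HCT-8 replicate 2 it was 0.54 (FDR = 0.106), and without either HCT-8 CM replicate it was 0.56, under the fold threshold (FDR = 0.00438 and 0.00484). The GC and length correction turned the sign of SNRPF to −0.08 (FDR = 0.788). SNRPF was at −0.06 ± 0.15 (FDR = 0.824) in HCT-8/FU CM.

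SNRPD2 was at 101 and 88.3 CPM in HCT-8, 71.8 and 83.4 CPM in HCT-8/FU, 164 and 104 in HCT-8 CM, and 72.7 and 80.3 in HCT-8/FU CM. HCT-8 CM was the highest group, and its replicate 1, a poorly aligned library, lay far above replicate 2. SNRPD2 fell by 0.79 ± 0.15 on the log2 scale in HCT-8/FU CM (edgeR FDR = 0.00177), and without HCT-8 CM replicate 1 the difference was −0.45 (FDR = 0.00103), past the FDR and under the fold threshold. It was −0.45 without the 3 poorly aligned libraries. In HCT-8/FU it was at −0.30 ± 0.16 (FDR = 0.173).

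SNRPG was at 35.2 and 33.5 CPM in HCT-8, 35.6 and 42.6 CPM in HCT-8/FU, 59.2 and 40.9 in HCT-8 CM, and 36.0 and 29.4 in HCT-8/FU CM. As for SNRPD2, HCT-8 CM replicate 1 held the highest value. SNRPG fell by 0.58 ± 0.15 on the log2 scale in HCT-8/FU CM (edgeR FDR = 0.0124). The difference was −0.32 without that library and −0.32 without all 3 poorly aligned ones, under the fold threshold, so the call was lost. Apart from single libraries left out, the call was lost in 8 of 11 other settings. Among them were DESeq2 (−0.57), DESeq2's size factors (−0.55) and HCT-8 CM replicate 2 as TMM reference (−0.50). The fall also lost its call without HCT-8 replicate 2 (−0.53, FDR = 0.0556), without HCT-8/FU CM replicate 2 (−0.45, FDR = 0.144) and without either HCT-8/FU replicate (−0.58, FDR = 0.0215 and 0.0194), the last just under the fold threshold. In HCT-8/FU it was at 0.17 ± 0.16 (FDR = 0.462). SNRPG has 20 named pseudogenes in the annotation, which took 5.42% of the counts of gene and pseudogenes together, so its counts are uncertain where reads could be split.

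SNRPB was at 49.6 and 52.1 CPM in HCT-8, 46.7 and 42.8 CPM in HCT-8/FU, 44.2 and 65.4 in HCT-8 CM, and 58.2 and 60.2 in HCT-8/FU CM. SNRPD3 was at 88.3 and 74.1 CPM in HCT-8, 82.5 and 99.8 CPM in HCT-8/FU, 93.6 and 91.8 in HCT-8 CM, and 77.3 and 73.1 in HCT-8/FU CM. SNRPE was at 22.1 and 19.1 CPM in HCT-8, 23.5 and 28.7 CPM in HCT-8/FU, 22.2 and 19.9 in HCT-8 CM, and 16.9 and 19.6 in HCT-8/FU CM. None of these 3 was called, and replicates of a group differed by as much as the groups in SNRPB. The log2 fold changes in HCT-8/FU were −0.18 ± 0.14 for SNRPB (edgeR FDR = 0.361), 0.16 ± 0.11 for SNRPD3 (FDR = 0.257) and 0.33 ± 0.14 for SNRPE (FDR = 0.0856). The same genes in HCT-8/FU CM were at 0.08 ± 0.13 for SNRPB (FDR = 0.731), −0.30 ± 0.10 for SNRPD3 (FDR = 0.0493, by FDR alone) and −0.19 ± 0.14 for SNRPE (FDR = 0.368). SNRPE has 10 named pseudogenes, with 7.38% of the counts of both.

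**Figure D3:**
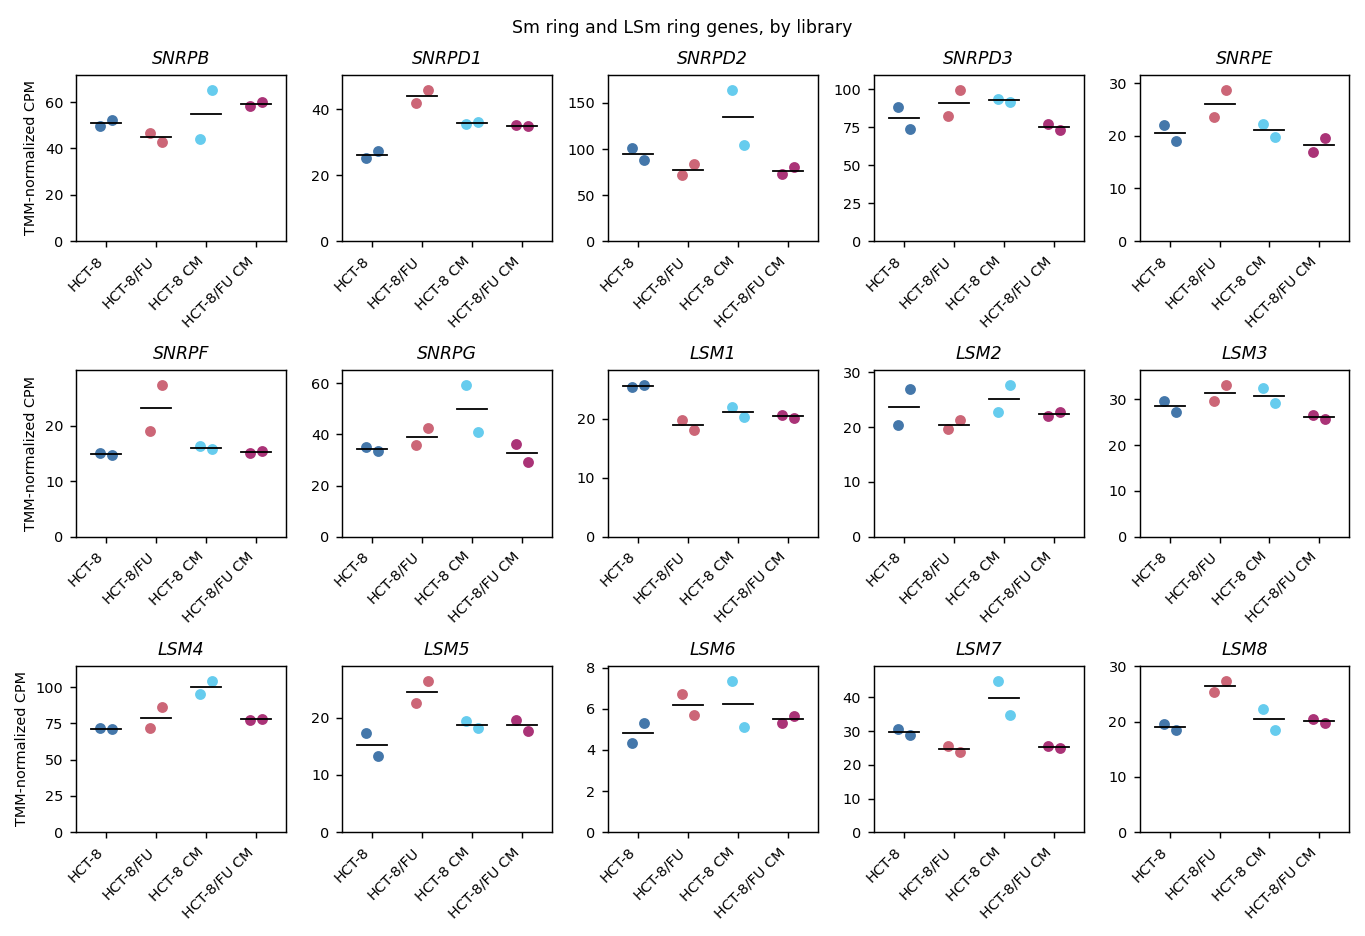
TMM-normalized CPM in each library (points; black lines, group means, n = 2) of the 7 Sm ring genes and the 8 LSm genes. SNRPD1, SNRPF, LSM5 and LSM8 are highest in HCT-8/FU, and SNRPD2, SNRPG, LSM4 and LSM7 in HCT-8 CM.

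The 3 proteins specific to U1, the snRNP that binds the splice site at the start of an intron, were not called but shared a direction in the CM comparison. SNRNP70 was at 221 to 223 CPM in HCT-8 and at 223 in both libraries of HCT-8/FU, 302 and 275 in HCT-8 CM, and 237 and 233 in HCT-8/FU CM. All 3 were lower by FDR alone in HCT-8/FU CM (all genes 8.49%), SNRNP70 at −0.30 ± 0.07 (edgeR FDR = 0.00735), SNRPA at −0.37 ± 0.10 (FDR = 0.0198) and SNRPC at −0.49 ± 0.10 (FDR = 0.00362). The direction was not particular to U1, since 31 of the 40 members were negative there, beside 11406 of 20305 tested genes. With the GC and length correction the 3 values were −0.18, −0.21 and −0.40. In HCT-8/FU the values were 0.01 (FDR = 0.944), −0.16 (FDR = 0.286) and −0.26 (FDR = 0.0784). SNRNP70 was also higher by FDR alone in HCT-8 CM against HCT-8, at 0.38 ± 0.07 (FDR = 0.00167), and HCT-8 CM was its high group. Without HCT-8 CM replicate 1 the values in HCT-8/FU CM were −0.23 (FDR = 0.0221) for SNRNP70, −0.28 (FDR = 0.0628) for SNRPA and −0.44 (FDR = 0.00527) for SNRPC. The U2 proteins SNRPA1 and SNRPB2, which bind a stem-loop of U2 snRNA together, were at −0.11 and −0.03 in HCT-8/FU and at −0.16 and −0.18 in HCT-8/FU CM on the log2 scale, with FDR from 0.374 to 0.905.

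The LSm proteins form a nuclear ring on U6 snRNA with LSM8 and a cytoplasmic ring in mRNA decay with LSM1, while LSM2 to LSM7 belong to both. LSM5 was called higher in HCT-8/FU and LSM7 lower in HCT-8/FU CM. LSM5 was at 17.2 and 13.3 CPM in HCT-8, 22.5 and 26.4 CPM in HCT-8/FU, 19.3 and 18.2 in HCT-8 CM, and 19.6 and 17.7 in HCT-8/FU CM. HCT-8/FU was the highest group and the CM groups overlapped. LSM5 rose by 0.70 ± 0.15 on the log2 scale in HCT-8/FU (edgeR FDR = 0.0018), with 0.45 (FDR = 0.0964) without HCT-8 replicate 2 and 0.25 (FDR = 0.265) after the GC and length correction. Without the 3 poorly aligned libraries it was 0.75. Its value in HCT-8/FU CM was 0.00 ± 0.14 (FDR = 0.998).

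LSM7 was at 30.7 and 28.9 CPM in HCT-8, 25.5 and 23.9 CPM in HCT-8/FU, 44.9 and 34.6 in HCT-8 CM, and 25.4 and 25.1 in HCT-8/FU CM. HCT-8 CM replicate 1 was again the highest library, and HCT-8 CM the highest group. LSM7 fell by 0.63 ± 0.12 on the log2 scale in HCT-8/FU CM (edgeR FDR = 0.00154). Without HCT-8 CM replicate 1 the difference was −0.45 and without HCT-8 replicate 2 −0.57. It was −0.46 without the 3 poorly aligned libraries, and all of these lay under the fold threshold. Its value in HCT-8/FU was −0.25 ± 0.13 (FDR = 0.153).

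The genes that tell the rings apart did not share a direction in HCT-8/FU as fitted, but did with the GC and length correction. LSM8 was higher by FDR alone, at 0.47 ± 0.13 (edgeR FDR = 0.00998), and LSM1 lower by FDR alone, at −0.42 ± 0.12 (FDR = 0.0121), with 37.9% of the exonic bases of LSM1 opposite other genes. Both were near 0 in HCT-8/FU CM, at 0.00 (FDR = 0.997) and −0.04 (FDR = 0.835). With the correction LSM8 was at −0.30 and LSM1 at −0.36 in HCT-8/FU, neither called, and at −0.81 and 0.06 in HCT-8/FU CM. The correction takes in the 17309 annotated exonic bases of LSM8, beside a median of 3437.5 over the members, so the corrected values of LSM8 are uncertain. LSM4 was at 0.12 ± 0.10 (FDR = 0.348) in HCT-8/FU and lower by FDR alone in HCT-8/FU CM, at −0.37 ± 0.09 (FDR = 0.01). LSM2, LSM3 and LSM6 did not pass the FDR, at −0.27, 0.13 and 0.36 in HCT-8/FU and −0.19, −0.23 and −0.13 in HCT-8/FU CM.

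Whether the first comparison and the second differed was tested as a contrast of its own, since they share no library. Their baselines differ, HCT-8 in the first and HCT-8 CM in the second, so a shift between these groups enters the difference. By FDR, 4 of 40 members had a larger log2 fold change in HCT-8/FU than in HCT-8/FU CM (10.0%, against 5.15% of all tested genes) and 1 of 40 a smaller one (2.5%, against 6.42%). SNRPD1 differed by 0.76 ± 0.14 on the log2 scale (edgeR FDR = 0.00246) and SART3 by −0.58 ± 0.11 (FDR = 0.00367), and both stood under every alternative that was run. SNRPG, LSM5 and LSM4 differed by 0.75 ± 0.22 (FDR = 0.0376), 0.70 ± 0.21 (FDR = 0.0401) and 0.49 ± 0.13 (FDR = 0.0252). Each of the 3 lost its call when any of 5 or more of the 8 libraries was left out. USPL1 and TGS1, higher on both sides, differed by −0.07 ± 0.22 (FDR = 0.9) and −0.14 ± 0.16 (FDR = 0.662), which does not show that the responses were alike.

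The members' changes varied with base composition. Across the 40 members, log2 fold change and exonic GC content had a Pearson's r of −0.38 (Spearman's rho −0.42) in HCT-8/FU and −0.45 (−0.49) in HCT-8/FU CM, as a description over genes that share their libraries. In HCT-8 CM against HCT-8 the sign was the opposite, at 0.40 (0.36). All tested genes showed like trends, with a rho of −0.40 in each of the first 2 comparisons and 0.30 in the third. The median GC content of the members was 44.65%, beside 49.0% for tested genes. The libraries were then corrected for their trend with GC content and exonic length over tested genes, which removes any change that follows that trend. Among the members, Pearson's r with GC content was then 0.39 in HCT-8/FU, 0.16 in HCT-8/FU CM and −0.04 in HCT-8 CM against HCT-8. In HCT-8/FU the members' trend thus turned in sign rather than vanishing. With the correction HCT-8/FU had 1 member called higher and 4 lower (all genes 7.27% and 8.06%). The higher one was GEMIN4 (GC 56.1%) and the lower ones SART3, STRAP, SMN2 and SNRPB2, so SNRPD1, SNRPF, LSM5 and USPL1 were no longer called. HCT-8/FU CM had 1 higher, USPL1, and 6 lower, SNRPD2, SNRPG, CLNS1A, LSM8, SNRPB2 and SNRPF (all genes 2.65% and 2.16%). Whether GC content has a part in these changes was not tested.

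**Figure D4:**
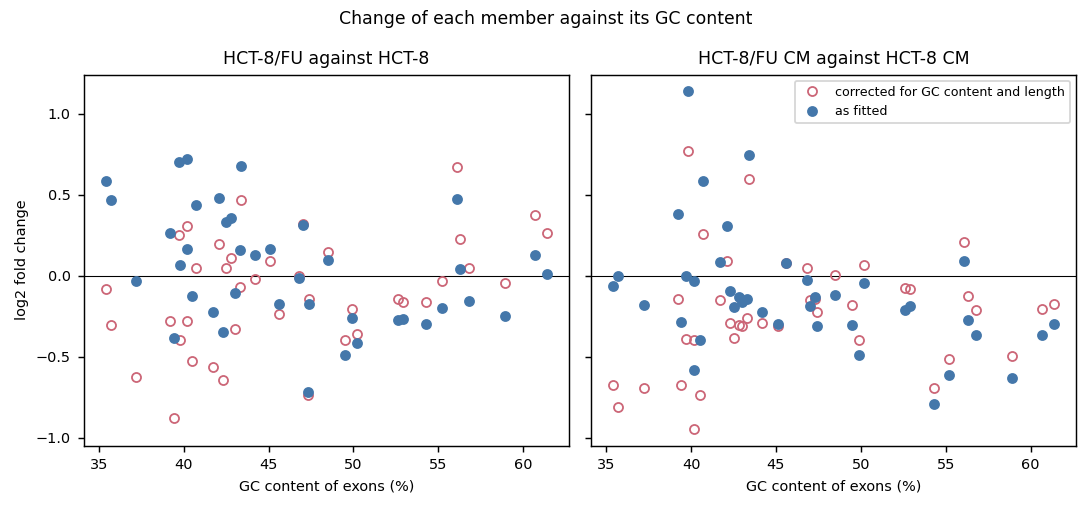
Log2 fold change of each of the 40 members against the GC content of its exons (%), as fitted (filled blue) and with the libraries corrected for GC content and length (open red), for HCT-8/FU against HCT-8 (left) and HCT-8/FU CM against HCT-8 CM (right). The filled points fall from left to right (Pearson's r −0.38 and −0.45, n = 40), while the open points have a positive r (0.39 and 0.16).

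A list of 72 other genes of the pathway was read in the same comparisons, as fitted. Their values with a library left out, under the other alternatives or with the GC and length correction were not examined. In HCT-8/FU 8 of 72 were called higher and 5 lower (all genes 13.2% and 8.12%), in HCT-8/FU CM 7 and 0 (all genes 7.97% and 1.28%), and in HCT-8 CM against HCT-8 2 and 2 (all genes 3.86% and 4.29%), with median log2 fold changes of −0.07, −0.17 and −0.03. Of 10 mRNA decay partners of the LSm ring, 2 were called higher both in HCT-8/FU and in HCT-8/FU CM and 0 lower. XRN1, the exonuclease that degrades decapped mRNA, rose by 1.21 ± 0.09 on the log2 scale in HCT-8/FU (edgeR FDR = 1.73e-07) and by 1.62 ± 0.10 in HCT-8/FU CM (FDR = 3.88e-07), and fell by 1.04 ± 0.10 in HCT-8 CM against HCT-8 (FDR = 9.75e-06). DCP2, the decapping enzyme, rose by 1.13 ± 0.10 (FDR = 5.54e-07) and 0.96 ± 0.10 (FDR = 7.18e-06). Of 5 snRNA export genes, XPO1, the export receptor that carries PHAX and snRNA out of the nucleus, rose by 1.40 ± 0.10 (FDR = 1.15e-07) in HCT-8/FU and 0.75 ± 0.10 (FDR = 7.75e-05) in HCT-8/FU CM.

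The counts of the shorter lists stand beside 13.2% of all tested genes called higher and 8.12% lower in HCT-8/FU. These shares were 7.97% and 1.28% in HCT-8/FU CM, and 3.86% and 4.29% in HCT-8 CM against HCT-8. Of 19 genes of snRNA transcription and end processing, 1 was called higher and 1 lower in HCT-8/FU. They were the Integrator subunits INTS2 (1.66 ± 0.17, edgeR FDR = 2.25e-06) and INTS5 (−0.58 ± 0.10, FDR = 0.000268). INTS2 (0.92) and INTS6 (0.61) were called higher in HCT-8/FU CM, and in HCT-8 CM against HCT-8 INTS6 (−0.64) was called lower. Of 8 genes of the minor spliceosome, SNRNP48 (1.00 and 0.76) and RNPC3 (1.06 and 0.78) were called higher in HCT-8/FU and in HCT-8/FU CM, and SNRNP25 (0.85) in HCT-8 CM against HCT-8. Of 10 genes of the U2 SF3 complexes, 1 was called higher and 3 lower in HCT-8/FU, with SF3B1 at 0.59 and SF3A2 at −0.73, the 2 of lowest p. Of 8 U4/U6 genes, PPIH (0.72) was called higher and SART1 (−0.69) lower in HCT-8/FU, and PPIH (0.79) was called higher in HCT-8 CM against HCT-8. The 8 U5 genes and 4 U7 genes held no call in these 3 comparisons by edgeR. Of them, 4 and 3 had an unadjusted p under 0.05 in HCT-8/FU, beside 8940 of 20305 tested genes. Counts were 6 and 0 in HCT-8/FU CM, beside 6463, and 2 and 1 in HCT-8 CM against HCT-8, beside 6247.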

How the data were processed

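Poly(A)-selected RNA of 8 samples was sequenced as paired reads. Per the labels and the study's methods, the authors used HISAT2 for alignment to GRCh38 and SAMtools 1.18 for sorting, and deposited raw counts per gene from HTSeq 0.11.2. The sources used here do not give the strand setting. Lines that name no gene (59.2% to 70.3% of records) stayed out of library sizes and tests. The deposited tables of the authors' own comparisons hold fold changes and p-values from DESeq2 1.30.0 and were not used.

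Counts were fitted in R 4.3.3 with edgeR 4.0.16 (quasi-likelihood, TMM with HCT-8 replicate 2 as reference, filterByExpr, 4 group means, 8 libraries, no replicate block). A standard error is the size of a log2 fold change over the square root of F. DESeq2 1.42.0 was an alternative. Positions, GC content and length are from GENCODE 44 on the same build, for 56105 of 64253 identifiers. Scripts were tested on simulated data. The shallowest library, with 5804124 counts on genes, sets the precision. Replicate numbers did not pair the samples, with correlations of replicate differences from −0.12 to 0.13 between groups. Replicates of each group differed by more than sampling noise (median chi-square over tested genes 1.03 to 2.06, where noise gives 0.455).

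The members and lists were chosen with earlier results of these data known. Values in every library are given for COIL, SMN1, SMN2, the 7 Sm ring genes and each member called in the first 3 comparisons, SNRNP70 was added after its values were seen, and other pathway genes are named for the 2 lowest p of a list among those called. Leaving out the 3 poorly aligned libraries together was added after the data were seen. Alternative splicing and protein were not analysed here. Some overlapping and marker genes are not reported here.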

Additional observations from a re-analysis of the deposited data

Results flagged for a closer look

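For 5 members the change in HCT-8/FU against HCT-8 differed from that in HCT-8/FU CM against HCT-8 CM. The test was edgeR's quasi-likelihood test of one contrast minus the other over 8 libraries. The baselines also differed. HCT-8 CM against HCT-8 gave −0.41 for SART3 (FDR = 0.00215), 0.44 for SNRPD1 (FDR = 0.00665), 0.52 for SNRPG (FDR = 0.0293) and 0.49 for LSM4 (FDR = 0.00185). LSM5, at 0.34 (FDR = 0.147), did not pass the FDR there. SNRPD1 differed by 0.76 ± 0.14 on the log2 scale (FDR = 0.00246), since it was higher in HCT-8/FU than in HCT-8 (0.72) and not in HCT-8/FU CM (−0.03). SART3 differed by −0.58 ± 0.11 (FDR = 0.00367), from −0.72 in HCT-8/FU and −0.13 in HCT-8/FU CM. SNRPG differed by 0.75 ± 0.22 (FDR = 0.0376), from 0.17 and −0.58, and was 0.47 (FDR = 0.0641) without HCT-8 CM replicate 1. LSM5 differed by 0.70 ± 0.21 (FDR = 0.0401), from 0.70 and 0.00, and was 0.39 (FDR = 0.374) without HCT-8 replicate 2. LSM4 differed by 0.49 ± 0.13 (FDR = 0.0252), from 0.12 and −0.37, and was 0.36 (FDR = 0.103) without HCT-8/FU replicate 2.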

How the results depend on the processing

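With 2 replicates a group, single libraries and the fold threshold decided many calls. Called members are given as higher and lower. The share of all tested genes called also moved between settings, so a count alone is no result about the members. Without a fold threshold they were 8 and 4 in HCT-8/FU, 4 and 11 in HCT-8/FU CM, and 6 and 2 in HCT-8 CM against HCT-8. With the GC and length correction they were 1 and 4, 1 and 6, and 2 and 0, with 1 and 1 for the difference between the first comparisons, and the same counts with the correction and the replicate block. SNRPF in HCT-8/FU turned to −0.0836 with the correction and −0.0585 with the block added. In HCT-8/FU CM, 2 members were lower with DESeq2's size factors (all genes 0.813%) and 1 with HCT-8 CM replicate 2 as TMM reference (0.621%). The count was 2 with DESeq2 (0.67%), 1 with edgeR on the groups compared only (0.42%) and 2 with a term for the poorly aligned libraries (0.822%). For the difference, 2 were higher with DESeq2's size factors (all genes 4.04%), 7 with that term (6.54%), and 2 lower with no filter on low counts (5.09%). Leaving out the 3 poorly aligned libraries gave 1 higher and 0 lower in HCT-8/FU CM, and 8 higher and 3 lower for the difference.

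Leaving out 1 library at a time gave 1 to 5 higher and 1 to 2 lower in HCT-8/FU, where 1 higher came without HCT-8 replicate 2 and 2 lower without HCT-8/FU replicate 2. In HCT-8/FU CM it gave 2 higher and 0 to 4 lower, with 1 lower without HCT-8 replicate 2 and 0 without HCT-8 CM replicate 1. In HCT-8 CM against HCT-8 it gave 0 to 3 higher and 0 lower, with 3 without HCT-8 CM replicate 2. For the difference it gave 1 to 10 higher and 1 to 2 lower, with 10 and 2 without HCT-8 CM replicate 2, 1 higher without HCT-8 replicate 2, HCT-8/FU replicate 2 or HCT-8/FU CM replicate 2 (the last with 2 lower), and 2 higher without HCT-8/FU CM replicate 1. A lone library was assumed to vary like the other groups. The cause was not tested for any of these.

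The replicate block, which has no basis in the labels, gave 4 and 1, 3 and 4, 0 and 0, and 4 and 1, the counts without it. Calls of SART3 in HCT-8/FU and of SNRPD1 and SART3 for the difference held under every alternative run. Across all values set against an alternative, 2992 kept their side of the threshold, 92 lost it and 78 gained it. Another 2, called in either fit, reversed. The tally includes the setting without a fold threshold, which repeats the main fit and can gain calls but lose none. A turn of sign without a call counts among the 2992. COIL in HCT-8/FU, for one, was at 0.16 as fitted and at −0.07 with the GC and length correction.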
